A study of Canis lupus familiaris with 16 samples.

Results

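PECAM1, ESAM, MCAM, EMCN, PLVAP, MMRN2 and MYCT1 are 7 genes for proteins of the endothelial surface and its junctions, and they were measured here among 24580 canine genes. They were chosen by their place on the study's list of genes with lower expression in meningiomas than in normal meninges, a list made from these same libraries. The difference between the groups is therefore a description for these genes, and no test of it is given. All 7 genes passed the filter on low counts (at least 10 fragments in at least 3 libraries), which 14345 genes passed.

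Endothelial cells line blood vessels and are held to each other by adhesion proteins at their borders. Their surface towards the blood carries a coat of glycoproteins, and in some vessel beds their pores and caveolae are closed by thin diaphragms. Vessels of the meninges supply the membranes around the brain, and meningiomas, which arise from cells of the arachnoid, draw blood from them.

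RNAseq was performed on 13 meningiomas of client-owned dogs of several breeds and on normal meninges of 3 healthy research beagles, and the age of the dogs was not given in the labels. Ribosomal RNA was removed before directional libraries were made. The tumors were labelled as grade I transitional or meningothelial, or as grade II atypical. All controls were fresh-frozen, whereas most tumors were fixed in formalin and embedded in paraffin and a few, by the study's methods, were frozen. The origin and breed of the dogs cannot be told apart from the diagnosis in the comparison of the groups. The deposited table numbers the meningioma libraries 0 to 12 and the control libraries 0 to 2 without naming the dogs. The labels do not give the tumor behind a number, and no comparison of grades or of fixed with frozen tumors was made.

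Between 2138741 and 7358925 fragments were assigned to genes in the meningioma libraries (median 4095984), and 7054614, 2269204 and 4467660 in control libraries 0, 1 and 2. Between 15652 and 18574 genes were detected in the meningioma libraries and between 16796 and 18777 in the controls. Meningioma libraries 2 and 12 stood apart from all others on a principal component. Some of the correlations, and the ranks of a range or gap that rest on these libraries, are also given without them. Levels are given as FPKM, the fragments of a gene relative to its transcript length and to the size of the library, which allows genes to be compared with each other. Fold changes were fitted with edgeR on fragments with TMM normalization (which scales libraries by their bulk of unchanged genes). An approximate standard error (SE) is given with each. It was derived from the fold change and its test statistic in the fit, and is a description only.

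All 7 genes were lower in the meningiomas, by 4.29-fold for PLVAP to 13.9-fold for MMRN2 (median 6.62-fold). For every gene, each of the 13 meningioma libraries was below the lowest of the 3 controls. These 13 include the frozen tumors, whichever libraries they are. The part of fixation, and of the RNA extraction that differed with it, in these levels was not tested. In edgeR's fit, 7 of 7 genes were called lower with a Benjamini-Hochberg adjusted p under 0.05, against 3.55% of all tested genes, and 7 of 7 had groups that did not overlap in normalized counts, against 3.58% of all tested genes. Nothing is read from these counts, because the genes were selected on this difference. The median log2 fold change was -2.73 for the 7 genes and 0.06 for all genes tested. In bulk tissue, fewer endothelial cells and less RNA per endothelial cell cannot be told apart.

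**Figure D1:**
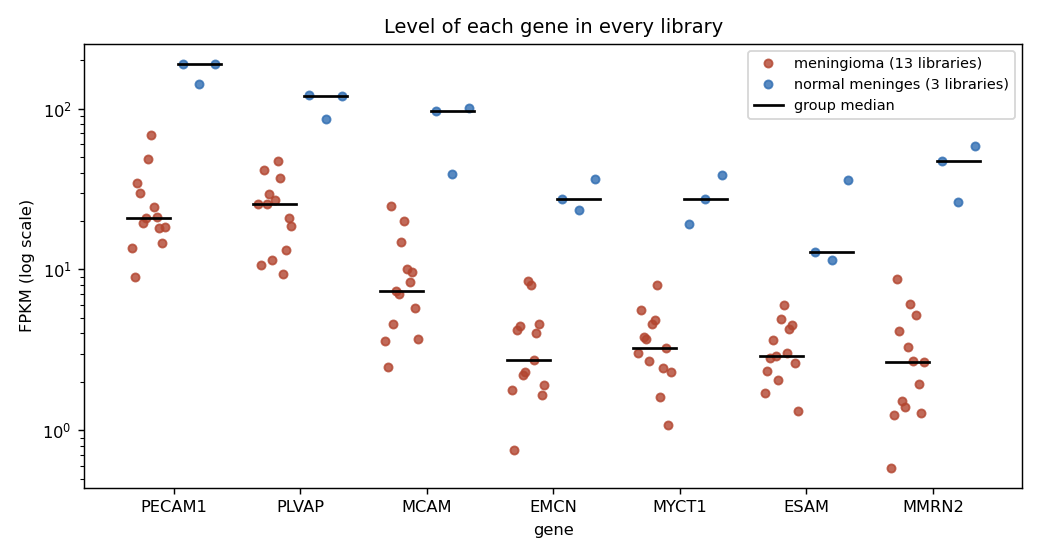
FPKM of the 7 genes on a log scale in the 13 meningioma libraries (red) and the 3 normal meninges libraries (blue), where each point is a library and each bar the median of its group. For every gene all red points lie below all blue points, and PECAM1 and PLVAP are the highest genes in both groups.

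PECAM1 (ENSCAFG00000011740) encodes an adhesion molecule found at the borders between endothelial cells and on platelets and leukocytes. It had 188.1, 141.2 and 188.6 FPKM in the 3 controls, the highest level of the 7 genes in each of them. In the meningiomas it ranged from 8.97 FPKM in library 1 to 68.5 FPKM in library 7, with a median of 21.02. The groups did not overlap, and the lowest control was 2.06-fold above the highest tumor. The mean was 26.2 ± 16.3 FPKM (SD, n = 13) in meningiomas and 172.7 ± 27.2 FPKM (SD, n = 3) in controls, and the fitted log2 fold change was -2.71 (SE 0.38).

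ESAM (ENSCAFG00000011147), an immunoglobulin-like protein of endothelial tight junctions, was the lowest of the 7 genes in each control, with 12.9, 11.5 and 36.1 FPKM. Meningioma values went from 1.32 FPKM in library 12 to 6.04 FPKM in library 7, around a median of 2.89. Control 2 stood well above the other controls, which themselves were above all tumors. The mean was 3.24 ± 1.37 FPKM in meningiomas (SD, n = 13) and 20.2 ± 13.9 FPKM in controls (SD, n = 3). The log2 fold change was -2.64 (SE 0.35), and it was -1.92 without control library 2. ESAM rested on 29 to 77 fragments in a meningioma library, and its estimated fragments were not whole in 2 libraries.

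MCAM (ENSCAFG00000012079) encodes an adhesion molecule of endothelial junctions that pericytes and smooth muscle also make. Its controls were spread, with 96.1, 39.2 and 100.3 FPKM. The meningiomas ranged from 2.49 FPKM in library 1 to 24.8 FPKM in library 2, with a median of 7.33. Control 1 was the low one, and it was 1.58-fold above the highest tumor, or 1.96-fold without libraries 2 and 12. The mean was 9.41 ± 6.71 FPKM in meningiomas (SD, n = 13) and 78.5 ± 34.1 FPKM in controls (SD, n = 3), and the fit gave -3.06 (SE 0.47) on the log2 scale.

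EMCN (ENSCAFG00000032716) encodes endomucin, a mucin-like protein of the endothelial coat that is typical of veins and capillaries. It had 27.2, 23.5 and 36.6 FPKM in the controls. In the meningiomas it lay between 0.757 FPKM in library 1 and 8.43 FPKM in library 6, with a median of 2.75, an 11.2-fold range between tumors. Every tumor was well under every control, with a 2.79-fold gap between the groups. The mean was 3.62 ± 2.37 FPKM in meningiomas (SD, n = 13) and 29.1 ± 6.73 FPKM in controls (SD, n = 3), and the fit gave -3.01 (SE 0.44) on the log2 scale. The lowest tumor value rested on 12 fragments.

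PLVAP (ENSCAFG00000015337) encodes the protein that builds the diaphragms of fenestrae and caveolae, and is known to be scarce in vessels with a mature blood-brain barrier. The controls had 121.0, 86.2 and 120.4 FPKM. Meningioma levels ran from 9.31 FPKM in library 9 to 47.1 FPKM in library 7, with a median of 25.5. The groups did not overlap, with a 1.83-fold gap, but library 7 reached 43.2% of the control mean, the highest share for any of the 7 genes in any tumor. The mean was 24.4 ± 12.2 FPKM in meningiomas (SD, n = 13) and 109.2 ± 19.9 FPKM in controls (SD, n = 3). Its log2 fold change of -2.10 (SE 0.35) was the smallest of the 7.

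MMRN2 (ENSCAFG00000016086), a glycoprotein of the endothelial extracellular matrix that binds the surface receptor CD93, had 47.2, 26.2 and 58.1 FPKM in the controls. In the meningiomas it lay between 0.587 FPKM in library 0 and 8.71 FPKM in library 2, with a median of 2.65. MMRN2 had the widest gap between the groups among the 7 genes (3.01-fold, and 4.29-fold without libraries 2 and 12). Its range between tumors was 14.8-fold, but 10.4-fold without those libraries, when that of EMCN was 11.2-fold. The mean was 3.14 ± 2.35 FPKM in meningiomas (SD, n = 13) and 43.8 ± 16.2 FPKM in controls (SD, n = 3), and the tumors had 7.16% of the control mean. The log2 fold change of -3.80 (SE 0.48) was the largest of the 7. It had 10 to 83 fragments in a meningioma library.

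MYCT1 (ENSCAFG00000000535) encodes a membrane protein that is rich in endothelium. The controls had 19.1, 27.4 and 38.6 FPKM, and the meningiomas 1.08 FPKM in library 11 to 8.02 FPKM in library 7, with a median of 3.27. No tumor reached the lowest control. The mean was 3.61 ± 1.84 FPKM in meningiomas (SD, n = 13) and 28.4 ± 9.80 FPKM in controls (SD, n = 3), and the fit gave -2.73 (SE 0.39) on the log2 scale.

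In the meningiomas the order of mean FPKM was PECAM1 (26.2), PLVAP (24.4), MCAM (9.41), EMCN (3.62), MYCT1 (3.61), ESAM (3.24) and MMRN2 (3.14). PLVAP was above MCAM, and MCAM above EMCN, in 13 of 13 libraries. PECAM1 and PLVAP did not keep an order, as PECAM1 was the higher in 6 of 13 libraries. The last 4 genes were not separated beyond their spread. The log2 ratio of ESAM to EMCN, for example, was 0.01 ± 0.63 (SD, n = 13), and that of ESAM to MMRN2 was 0.29 ± 0.91 (SD, n = 13). In the controls PECAM1 was above PLVAP in 3 of 3 libraries, and MMRN2 (43.8 FPKM) took the place after MCAM (78.5), ahead of EMCN (29.1), MYCT1 (28.4) and ESAM (20.2).

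The geometric mean of the 7 genes gave 1 level per library. It was 49.2, 36.9 and 68.1 FPKM in the controls and 6.58 ± 3.39 FPKM (SD, n = 13) in the meningiomas. Library 1 was the lowest tumor with 3.13 FPKM and library 7 the highest with 14.8 FPKM, ahead of libraries 2 (10.5) and 6 (10.4). The tumors thus had between 6.10% and 28.7% of the control mean, and differed 4.71-fold among themselves. The SD of the genes between meningiomas on the log2 scale was 0.60 to 1.01 (median 0.77), against a median of 0.58 over all genes tested.

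To see whether the genes held the same proportions in each library, the FPKM of each gene was divided by this geometric mean. The proportions are part of the same contrast that chose the genes, and the group differences below are descriptions. PLVAP took a larger part of the set in the tumors and MMRN2 a smaller part, while PECAM1 changed little on average.

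**Figure D2:**
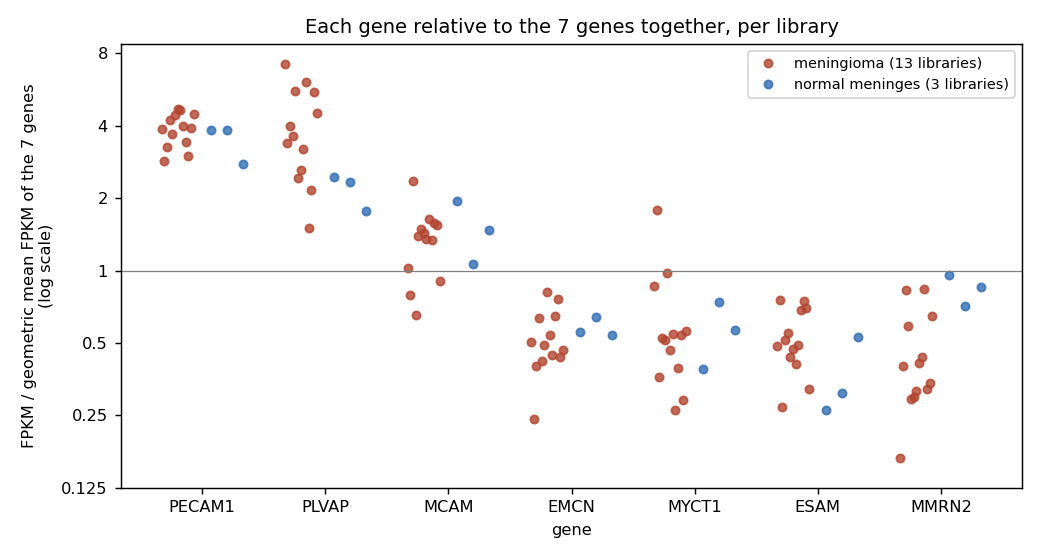
FPKM of each gene divided by the geometric mean FPKM of the 7 genes in the same library, on a log scale, for 13 meningioma libraries (red) and 3 normal meninges libraries (blue), where each point is a library and the line marks a ratio of 1. PLVAP lies above all controls in 10 of 13 meningiomas and MMRN2 below all controls in 11 of 13.

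The PLVAP ratio was 1.77 to 2.46 in the controls, and in the meningiomas 1.497 in library 9 to 7.25 in library 0, with a median of 3.63. It was above all controls in 10 tumors and below all of them in 1, library 9. The difference of meningiomas from controls was 0.75 on the log2 scale and lay between 0.60 and 0.85 over the settings tried. As a share of the summed FPKM of the 7 genes, PLVAP made up 33.9 ± 10.4% (SD, n = 13) in meningiomas and 22.9 ± 1.84% (SD, n = 3) in controls.

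The MMRN2 ratio was 0.711 to 0.960 in the controls and 0.167 in library 0 to 0.837 in library 9 in the meningiomas, with a median of 0.401. It was below all controls in 11 of 13 tumors, and the difference was -1.02 on the log2 scale (-1.18 to -0.91 over the settings). Libraries 0 and 9 were thus opposite in both genes, with library 0 highest for PLVAP and lowest for MMRN2, and library 9 the reverse in FPKM. PLVAP exceeded MMRN2 by 1.79-fold to 43.5-fold in the tumors (median 8.14) and by 2.56-fold, 3.29-fold and 2.07-fold in the controls. The tumors were above all controls in 12 of 13 libraries. The 43.5-fold was in library 0, where MMRN2 rested on 10 fragments, and the next highest was 19.2-fold in library 4. MMRN2 is itself part of the geometric mean, so a low MMRN2 raises the PLVAP ratio of its library.

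Set against PECAM1 alone, PLVAP was at 0.643, 0.610 and 0.638 of its FPKM in the controls. Those 3 libraries held nearly the same ratio, although their total fragments differed. In the meningiomas the ratio spread from 0.438 to 1.88 (median 1.01), with 10 tumors above all controls and 3 below. MMRN2 was at 0.251, 0.185 and 0.308 of PECAM1 in the controls and at 0.0431 to 0.254 (median 0.108) in the meningiomas, with 11 tumors below all controls.

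PECAM1 was the steadiest between tumors, at 2.86 to 4.68 times the geometric mean against 2.77 to 3.83 in the controls. It was above all controls in 8 tumors and below all of them in 0. The difference between the groups was 0.16 on the log2 scale for PECAM1, -0.18 for MCAM, -0.20 for EMCN and -0.02 for MYCT1, and those of MCAM and MYCT1 took either sign over the settings tried. EMCN was below all controls in 8 tumors and above all of them in 3. ESAM differed by 0.52, within 0.31 to 0.82 over the settings, and its 0.82 without control library 2 was above the 0.60 of PLVAP in that setting. MYCT1 stood out in library 1, where it was 1.79 times the geometric mean against 0.389 to 0.743 in the controls.

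FPKM depends on the transcript length that was assigned to a gene in each library. The scaled fragments behind 1 FPKM differed 2.16-fold between libraries for MYCT1 and 1.62-fold for PLVAP, and by at most 1.14-fold for the other 5 genes. The ratios were therefore also formed from fragments, with each gene scaled by its mean. PLVAP was then above all controls in 12 meningiomas and below in 1, MMRN2 below all controls in 11, and the ratio of PLVAP to PECAM1 above all controls in 10 and below in 3. The ratio of PLVAP to MMRN2 was above all controls in 12 and below in 0. PECAM1 was above all controls in 5 and below in 1. On fragments, library 2 and not library 9 had the highest MMRN2 ratio.

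Whether the genes rose and fell together between tumors was not used in their selection, and it was tested over the 13 meningioma libraries on log2 CPM (fragments relative to the size of the library, with TMM). The correlation was positive in 21 of 21 pairs, with Pearson's r from 0.33 to 0.90 (median 0.67). In 13 of 21 pairs the two-sided permutation test gave a p under 0.05 after Benjamini-Hochberg adjustment over the 21 pairs. Spearman's rho also passed in 13, but not in the same pairs. By rho ESAM with MMRN2 passed and PECAM1 with MYCT1 did not, the reverse of r. The counts of passing pairs below are of r. All genes of a point come from 1 library and share its depth, whose part in these correlations was not tested. How often pairs of other tested genes pass in the same 13 libraries was not tested either. The count of 13 of 21 pairs therefore has no background rate, and whether it is particular to these genes cannot be told from it.

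**Figure D3:**
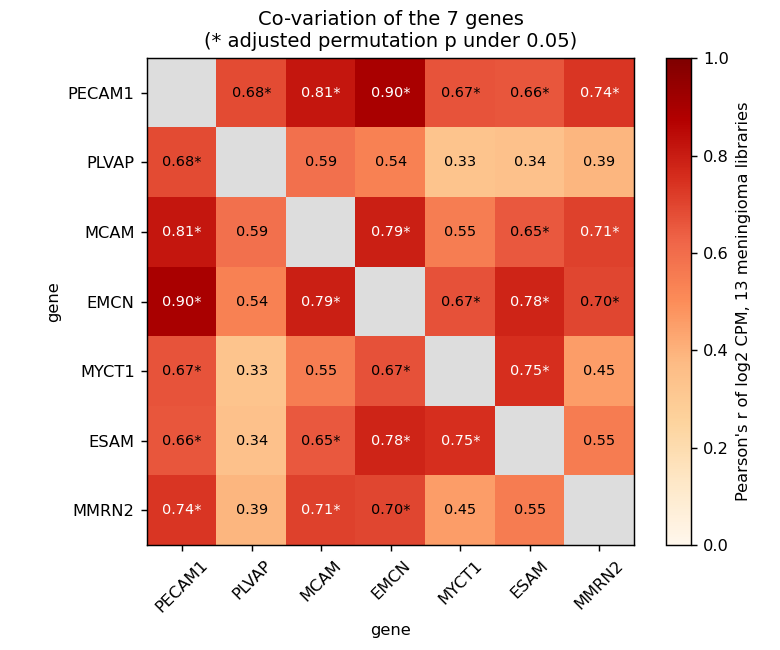
Pearson's r between each pair of the 7 genes over the 13 meningioma libraries, on log2 CPM, with the color scale from 0 to 1 and a star where the adjusted permutation p was under 0.05. All 21 values are above 0, PECAM1 has a star in all 6 of its pairs and PLVAP in 1.

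PECAM1 and EMCN had the highest Pearson's r over the 13 libraries, with r = 0.90 and rho = 0.80 (permutation tests, adjusted p = 0.00042 and 0.00979). Their r was 0.82 without the 2 libraries farthest from the median of PECAM1. For each pair, the 2 farthest libraries were taken from the median of its first gene, in the order that opens the Results. They can therefore differ from pair to pair. By rho, PECAM1 with MMRN2 (0.85) and ESAM with EMCN (0.84) were higher, and without the 2 farthest libraries EMCN with MYCT1 had the highest r (0.86). PECAM1 and MCAM had r = 0.81 and rho = 0.79 (permutation tests, adjusted p = 0.0084 and 0.00979, r = 0.73 without the 2 farthest). PECAM1, on the border between cells, thus rose and fell with a coat protein and with another adhesion protein. By r, PECAM1 passed in 6 of 6 pairs, EMCN in 5, ESAM and MCAM in 4 each, and MMRN2 and MYCT1 in 3 each.

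PLVAP passed in 1 of its 6 pairs, that with PECAM1 (r = 0.68 and rho = 0.69, permutation tests, adjusted p = 0.0205 and 0.0217, and r = 0.61 without the 2 farthest libraries, with an adjusted permutation p of 0.0965). Without library 7 its adjusted permutation p was 0.111, so that PLVAP then passed in 0 of its pairs. Its r was lowest with MYCT1 (0.33), ESAM (0.34) and MMRN2 (0.39). PLVAP had 67 to 321 fragments in the meningioma libraries, against 87 to 514 for PECAM1, 12 to 120 for EMCN and 10 to 83 for MMRN2. The part of counting error in the correlations of PLVAP was not tested. Whether its correlations are weaker than those of the other genes was not tested. Among the 15 pairs without PLVAP, 12 passed.

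Much of the count of pairs rested on library 7, the tumor with the highest level. Without it 4 of 21 pairs passed (PECAM1 with MCAM and with EMCN, and EMCN with ESAM and with MCAM), the median r was 0.55, and all 21 values were still positive. Without the 2 libraries farthest from the median of each pair's first gene, 8 of 21 pairs passed and r lay between 0.12 and 0.86. Without libraries 2 and 12, which stood apart, 14 passed. The added pair was ESAM with MMRN2. Its r was 0.55 (adjusted permutation p = 0.0681) over all meningioma libraries and 0.86 (adjusted permutation p = 0.0058) without these libraries.

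The mean of the 7 genes on the log2 scale was then set beside other measures of the meningioma libraries. These are descriptions with no p, since the score is a mean over chosen genes. The points were the 13 libraries, and 6 relations were computed. The mean followed 18 other endothelial genes closely, with r = 0.92 and rho = 0.97, and r = 0.86 without the 2 farthest libraries. Here these were the 2 libraries farthest from the median of the other measure. With 6 mural genes, of the pericytes and smooth muscle around vessels, r was 0.76 and rho 0.61, and r was 0.61 without library 7. With 13 extracellular matrix genes r was 0.24 and rho -0.06, and r was -0.32 without library 7 and 0.49 without libraries 2 and 12. Total fragments gave r = -0.41 and rho = -0.56, so that deeper libraries tended to lie lower, genes detected gave r = -0.09, and the share of the 100 highest genes gave r = -0.27. The part of depth in the levels was not tested further.

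**Figure D4:**
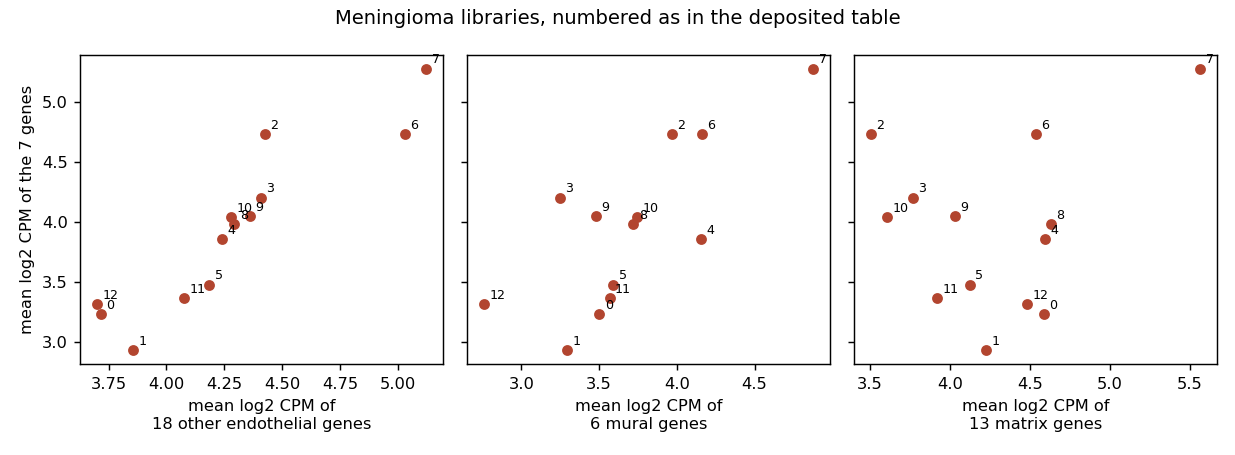
Mean log2 CPM of the 7 genes (vertical axis) against the mean of 18 other endothelial genes, 6 mural genes and 13 matrix genes (horizontal axes), where each point is a meningioma library with its number in the deposited table. The points follow a line for the endothelial genes (r = 0.92), depend more on library 7 for the mural genes (r = 0.76) and show no such line for the matrix genes (r = 0.24).

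The 18 endothelial genes with an identifier, of 32 listed, came from the same list of the study and are no independent evidence of direction. All 18 were called lower and below all controls in 13 of 13 meningiomas, with log2 fold changes of -3.31 to -1.52 (median -2.40). The 4 highest in the controls were CD93, the receptor that binds MMRN2, with 78.7 FPKM on average, the VEGF receptor FLT1 with 64.6, the angiopoietin receptor TEK with 57.4 and the transcription factor ETS1 with 47.7. In the meningiomas they had 8.51, 7.90, 10.3 and 14.96 FPKM. They did not all follow the 7 genes between tumors. The r with the mean of the 7 ranged from -0.03 for ECE1, an endothelin-converting enzyme, to 0.87 for TM4SF18, with a median of 0.61, and was 0.37 for TEK, 0.59 for FLT1 and 0.65 for CD93.

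All 6 mural genes with an identifier, of 12 listed, were likewise called lower, with a median log2 fold change of -3.26. These and the matrix genes were also picked by the study for being lower in these libraries, and nothing is read from their counts. NOTCH3, a receptor of mural cells, had 64.4 FPKM in the controls and 10.6 in the meningiomas, and MYH11, a smooth muscle myosin, had 45.2 and 4.10. Of the 13 matrix genes 12 were called lower and 11 were below all controls in every tumor, and their r with the 7 genes ranged from -0.44 for FBLN2 to 0.79 for TINAGL1. The markers listed for lymphatic endothelium, platelets and leukocytes, brain and red cells were not analysed here, nor were the defining endothelial genes CDH5, VWF, KDR and CLDN5, since the sources used here do not pair these symbols with identifiers of the table. The share of PECAM1 made by platelets or leukocytes was therefore not tested.

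Few of the tested genes followed the profile of the 7 between tumors. Each of the 7 was compared with the mean of the other 6, and PECAM1 (r = 0.92) ranked 2 and EMCN (r = 0.89) ranked 4 among the 14345 genes. MCAM (0.84) ranked 15, ESAM (0.75) 46, MMRN2 (0.71) 85, MYCT1 (0.66) 141 and PLVAP (0.56) 384. The median r of the other 14338 genes with the mean of all 7 was 0.00, and 4.28% of them were over 0.5. Among the 10 genes outside the set whose pattern was most like its mean over the 13 libraries, 4 had a symbol. These were TM4SF18 (r = 0.87), the KIT ligand KITLG (0.87), the membrane repair gene DYSF (0.86) and the endothelial receptor TIE1 (0.86). The nearest of all were ENSCAFG00000002079 (r = 0.93) and ENSCAFG00000006777 (r = 0.90), which the sources used here do not pair with a symbol.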

How the data were processed

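RNAseq was measured in 13 meningioma and 3 normal meninges libraries. Per the labels and the study's methods, reads were trimmed with cutadapt 1.8, mapped to canFam3 with TopHat2 2.0.13 and quantified with Cuffdiff 2.2.1. The authors deposited, per gene and library, estimated counts of fragments, a signal in which these fragments were scaled by a size factor per library, and FPKM computed from it and transcript length. A further column of scaled values was not used (1 column). Group C of the table was taken as meningioma and N as normal meninges, since it holds 13 C and 3 N libraries, the numbers that the labels give.

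The genes and lists were chosen with earlier results of these data known. All 7 genes are named, with up to 4 genes per list by control level and the 10 genes nearest in pattern. Fragments (0.347% of values not whole) were rounded and fitted with edgeR 4.0.16 (quasi-likelihood, TMM, Benjamini-Hochberg) in R 4.3.3, with a minimum of 10 fragments in 3 or more libraries. Alternatives were DESeq2 1.42.0, limma 3.58.1 on log2(FPKM + 1) and log2(FPKM + 0.1), other size factors and filters, and libraries left out. Correlations used log2 CPM with a prior count of 2 and 100000 permutations (numpy 2.4.6, Python 3.11.15). The scripts were checked on simulated data. A permutation p is the share of shuffles of the libraries that gave a correlation at least as large in size. The p of edgeR sets the difference between the groups against the spread between libraries. Depth was 2138741 to 7358925 fragments, and low genes carry counting error that FPKM does not show.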

Additional observations from a re-analysis of the deposited data

How the results depend on the processing

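All 7 genes were among those called lower in each of 24 alternative settings. Nothing is read from this, because the genes were selected on this difference. All 7 also had groups that did not overlap in each of 17 settings, which used CPM in place of FPKM or left 1 library out. Leaving out a library cannot make separated groups overlap, so only CPM could have changed this result, and it did not. The log2 fold changes of the 7 genes moved by less than each gene's SD between meningiomas, a wide margin of 0.60 to 1.01. The exception was ESAM, with -1.92 without control library 2. Over all genes, the count called lower was 509, and 157 to 615 with 1 library left out (208, 307 and 157 without control libraries 0, 1 and 2). With DESeq2 702 genes were called lower and 662 higher, against 509 and 188 with edgeR. Of the 21 pairs of genes, 13 passed by r, and 8 without the 2 libraries farthest from the median of each pair's first gene. On log2(FPKM + 1) 10 passed and on log2(FPKM + 0.1) also 10, with a median r of 0.56 in each. With 1 library left out 4 to 15 passed, the 4 without library 7. The correlation with the mural genes was 0.76, and 0.59 without the 2 libraries farthest from the median of the mural genes. It was 0.61 to 0.82 with 1 library left out, the 0.61 without library 7. That with the other endothelial genes was 0.86 to 0.96. Why DESeq2 or these libraries changed the counts was not tested. No paired analysis was possible because the table's library numbers are not tied to the labels' numbers and the groups hold different dogs. Depth limits the low genes, with 10 fragments for MMRN2, 12 for EMCN and 16 for MYCT1 in their lowest tumors. Ranges and gaps without libraries 2 and 12 were added after seeing the data.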

Other observations

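Several endothelial genes that were lower in all 13 meningiomas than in all controls showed little relation to the 7 surface genes between tumors. Pearson's r with the mean of the 7 over the 13 libraries was 0.12 for SHE, an adaptor protein, 0.21 for AMOT, the angiostatin-binding protein, 0.22 for KANK3 and 0.29 for PALD1. Their log2 fold changes were -1.60, -2.03, -2.93 and -2.33. These 4 genes were named after their values were seen. Of the 10 genes nearest to the 7 in pattern, 9 were lower in the meningiomas on the log2 scale, and ENSCAFG00000031898 (r = 0.86), with 0.90, was not.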
